A study of Mus musculus with 20 samples.

Results

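Genes of fat synthesis, fat breakdown and lipoprotein transport were followed in the livers of 20 gonadectomized mice of the C57BL/6J strain. The genes were taken by symbol: every probe whose single gene symbol in the platform annotation began with Apoa, Apob, Apoc, Apoe, Apof, Apoh, Apom, Apoo, Elovl, Fads, Scd, Acac, Fasn, Acly, Thrsp, Agpat, Gpam, Dgat, Plin, Pltp, Lcat, Scarb, Srebf1, Mlxipl or Pnpla, or matched Lipa, Lipc, Lipg, Lipe, Lpl or Me1. This gave 51 genes on 53 probes, out of 11734 named genes and 21643 features in all (a feature is a gene, or a probe without a single gene name). Acaca had 3 probes, which were averaged, and each other gene had 1. The symbol rule also took in genes outside lipid transport proper: the cytidine deaminases Apobec1, Apobec2 and Apobec3, the receptor Apobr and the lysosomal membrane protein Scarb2. Gpam, Lipc, Lipe, Pnpla2, Apoo and Apool had no probe under their own symbol alone and were not analysed here.

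The mice came from the core genotypes cross. Its Y chromosome has lost the testis gene Sry (written Y-) and an Sry transgene sits on an autosome, so that gonadal type and sex chromosomes are inherited apart. The 4 groups of 5 animals were XX Sry and XY-Sry, both gonadal males, and XX and XY-, both gonadal females. The gonads of all 20 animals were removed at 8 weeks of age, and livers were taken at 12 weeks, after a 12 h fast, from animals on chow with 4% fat. In this design, the Sry transgene and the gonads carried until 8 weeks of age cannot be told apart. Each liver was hybridised in Cy5 with a common liver RNA pool in Cy3, and all values below are log2 ratios of liver over pool, so that 0 is the level of the pool. A ratio does not give a gene's abundance, and levels are not compared between genes.

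The liver makes fatty acids from citrate: Acly releases acetyl-CoA, Acaca turns it into malonyl-CoA, and Fasn builds palmitate with NADPH that Me1 helps to supply. Desaturases (Scd, Fads) and elongases (Elovl) modify the chains, the Agpat and Dgat enzymes build them into triglyceride, and perilipins coat the droplets in which it is stored. Apob carries triglyceride out of the liver, Apoa1 is the main protein of HDL, and Pltp, Lcat and the receptor Scarb1 remodel HDL or take up its cholesterol. The transcription factors Srebf1 and Mlxipl switch on many of the synthesis genes after feeding, and fasting lowers their activity.

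Promoter windows are printed for 5 genes whose values set single livers of gonadal females apart (described further on): Acly, Fasn and Thrsp, which were high in them, and Plin2 and Apoa4, which were low. The windows run from 250 bases before to 50 bases after the annotated start (RefSeq, GRCm38.p6), and are written 5′ to 3′ on the gene's strand. They lie at chr11:100527951-100528250 (minus strand) for Acly, chr11:120824498-120824797 (minus) for Fasn, chr7:97417501-97417800 (minus) for Thrsp, chr4:86670010-86670309 (minus) for Plin2 and chr9:46240594-46240893 (plus) for Apoa4. Capitals mark matches, on either strand, to CCAAT (the CCAAT box) and CACGTG (an E-box); TCACNCCAC, a sterol regulatory element, was searched too and had no match in these windows.
Acly: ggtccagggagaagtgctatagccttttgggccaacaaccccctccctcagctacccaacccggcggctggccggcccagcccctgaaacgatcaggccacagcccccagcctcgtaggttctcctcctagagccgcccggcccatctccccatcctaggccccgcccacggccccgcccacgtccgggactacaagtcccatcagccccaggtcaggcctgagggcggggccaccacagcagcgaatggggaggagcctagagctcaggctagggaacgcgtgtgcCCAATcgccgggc
Fasn: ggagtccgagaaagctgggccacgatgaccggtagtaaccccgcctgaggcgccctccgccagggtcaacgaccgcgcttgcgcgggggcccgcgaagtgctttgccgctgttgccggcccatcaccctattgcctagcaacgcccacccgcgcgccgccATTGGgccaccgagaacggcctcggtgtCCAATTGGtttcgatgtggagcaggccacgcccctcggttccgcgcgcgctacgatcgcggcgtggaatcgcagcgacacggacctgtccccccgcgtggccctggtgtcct
Thrsp: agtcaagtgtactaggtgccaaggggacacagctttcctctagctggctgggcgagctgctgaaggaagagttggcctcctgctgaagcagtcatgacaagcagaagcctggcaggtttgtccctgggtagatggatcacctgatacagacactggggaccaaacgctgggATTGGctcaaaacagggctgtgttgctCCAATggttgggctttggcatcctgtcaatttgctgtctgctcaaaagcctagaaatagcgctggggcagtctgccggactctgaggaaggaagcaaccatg
Plin2: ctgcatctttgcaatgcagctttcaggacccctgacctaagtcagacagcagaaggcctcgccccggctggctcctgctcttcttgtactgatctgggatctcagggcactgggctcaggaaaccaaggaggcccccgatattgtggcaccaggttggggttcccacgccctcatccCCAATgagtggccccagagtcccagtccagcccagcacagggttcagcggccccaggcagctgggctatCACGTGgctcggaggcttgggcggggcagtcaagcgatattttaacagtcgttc
Apoa4: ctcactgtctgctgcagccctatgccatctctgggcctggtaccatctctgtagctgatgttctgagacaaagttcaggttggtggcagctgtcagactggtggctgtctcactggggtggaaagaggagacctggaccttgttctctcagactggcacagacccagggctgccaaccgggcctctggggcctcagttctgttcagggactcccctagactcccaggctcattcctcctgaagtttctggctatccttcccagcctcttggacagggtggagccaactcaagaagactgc

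The CCAAT letters were found once in the Acly window, 3 times in Fasn, 2 times in Thrsp, once in Plin2 and 0 times in Apoa4, with the 2 matches next to each other in Fasn sharing bases. Of all 32851 promoter windows of this length, 37.4% held CCAAT, 7.15% CACGTG and 1.24% TCACNCCAC. Among the 51 genes, 41 had a window, and some had more than 1, for 55 in all. Of these 55 windows, 41.8% held CCAAT, 9.09% CACGTG (those of Apoa5, Mlxipl, Plin2 and Pnpla7) and 1.82% TCACNCCAC (that of Mlxipl). Without a window in the table were Scd1, Dgat2, Fads1, Scarb1, Dgat1, Apof, Scd2, Lipg, Elovl3 and Lpl.

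All 20 arrays gave a value for every lipid gene, and none lay at the deposited limit. Log2 ratios had an SD of 0.175 to 0.341 per array. The 4 arrays with an SD over 0.3 came from gonadal females: XX 6, XX 2, XY- 12 and XY- 3, named by group and animal number. Over all probes, 9 of 190 pairs of arrays correlated below -0.3 (range -0.54 to 0.68), and their direction was kept since all livers carried the same dye. The library labelled XY- 30 had no Y-linked signal: its log2 ratio was -3.90 for Eif2s3y and -3.16 for Kdm5d, and Eif2s3y lay between 0.57 and 1.34 in the other 9 XY livers. Of 10 hepatocyte markers, 4 were measured (Ttr, Serpina1a, Hpx and Ahsg), and their mean log2 ratio per array ran from -0.198 to 0.173 in gonadal males and from -0.187 to 0.410 in gonadal females. The label of liver cannot be tested further with ratios to a liver pool.

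The lipid genes varied more from animal to animal than most genes did. Their median SD over the 20 livers was 0.266 log2 units, against 0.158 for all features, and 43 of the 51 lay above the median of all features. The widest were Apoa4 (SD 1.27), an apolipoprotein of HDL and chylomicrons, Srebf1 (0.75), the very long chain elongase Elovl3 (0.74), Apob (0.69), Thrsp (0.68), a lipogenic protein responsive to thyroid hormone, and Plin4 (0.64). At the other end were Apoa1 (0.03) and Apoa5 (0.05), which raises the hydrolysis of plasma triglyceride. Apoa1 stayed between -0.08 and 0.05 in all 20 livers and had the smallest SD of all 21643 features, and Apoa5 stayed between -0.16 and 0.03. Signal over background was not analysed here, nor was signal at the upper end of the measuring range. A narrow ratio to the pool can therefore not be read as constant expression.

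The spread was larger among gonadal females. The SD within the groups was wider in gonadal females than in gonadal males for 46 of the 51 genes (90.2%), against 79.6% of all features, with a median of 0.162 in gonadal males and 0.305 in gonadal females for the lipid genes. The 4 arrays of wide overall spread are all in gonadal females. The liver XX 6 held the highest or lowest value of 19 lipid genes (37.3%), against 18.6% of all features. XY- 3 held 15 of them (29.4%, against 27.1% of all features), XY- 12 held 10 (19.6%, against 18.9%) and XX 2 held 6 (11.8%, against 13.5%).

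**Figure D1:**
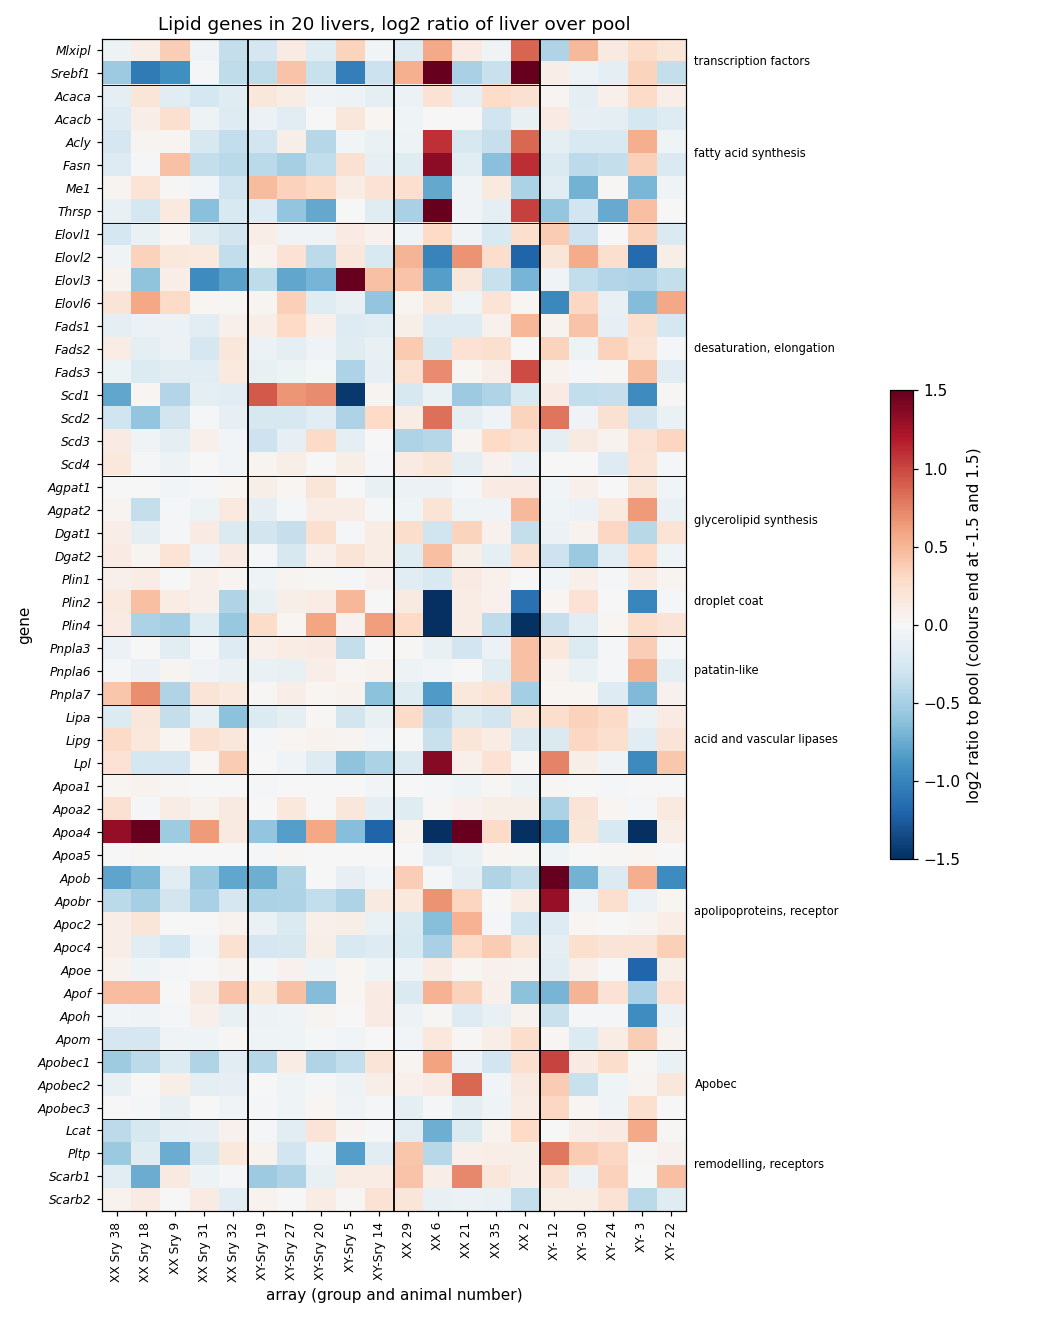
Log2 ratio of liver over pool for 51 lipid genes (rows, by role) in 20 livers (columns, by group, with vertical lines between the groups); red is above and blue below the pool, and colours end at -1.5 and 1.5. The columns XX 6, XX 2 and XY- 3 are blue for Plin2, Apoa4 and Elovl2 (-2.73 to -0.98), and the rows of Apoa1 and Apoa5 stay near 0.

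The first comparison asked which of these genes depend on gonadal type, over both sex chromosome complements. Apobr, the apolipoprotein B receptor, was the gene that passed: it was 1.54-fold lower in livers of gonadal males. The lower means of Srebf1, Pltp, Apobec1, Scarb1 and Fads3 and the higher means of Me1, Plin2 and Apoa4 did not pass the test over all features. limma's moderated test with Benjamini-Hochberg adjustment over all 21643 features, at a threshold of 0.05, called 1 of 51 lipid genes (1.96%), against 3.74% of all features, and 2.28% of all features in the lower direction. At an unadjusted p under 0.05 there were 11 lipid genes (21.6%), 1 higher and 10 lower in gonadal males, against 17.8% of all features, of which 9.38% were higher and 8.37% lower. Of the 51 genes, 22 had higher and 29 lower means in gonadal males. The median difference was -0.059 log2 units, against 0.008 over all features. No lipid gene separated the 10 gonadal males from the 10 gonadal females without overlap. Among all features, 0.0554% were higher and 0.286% lower without overlap.

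**Figure D2:**
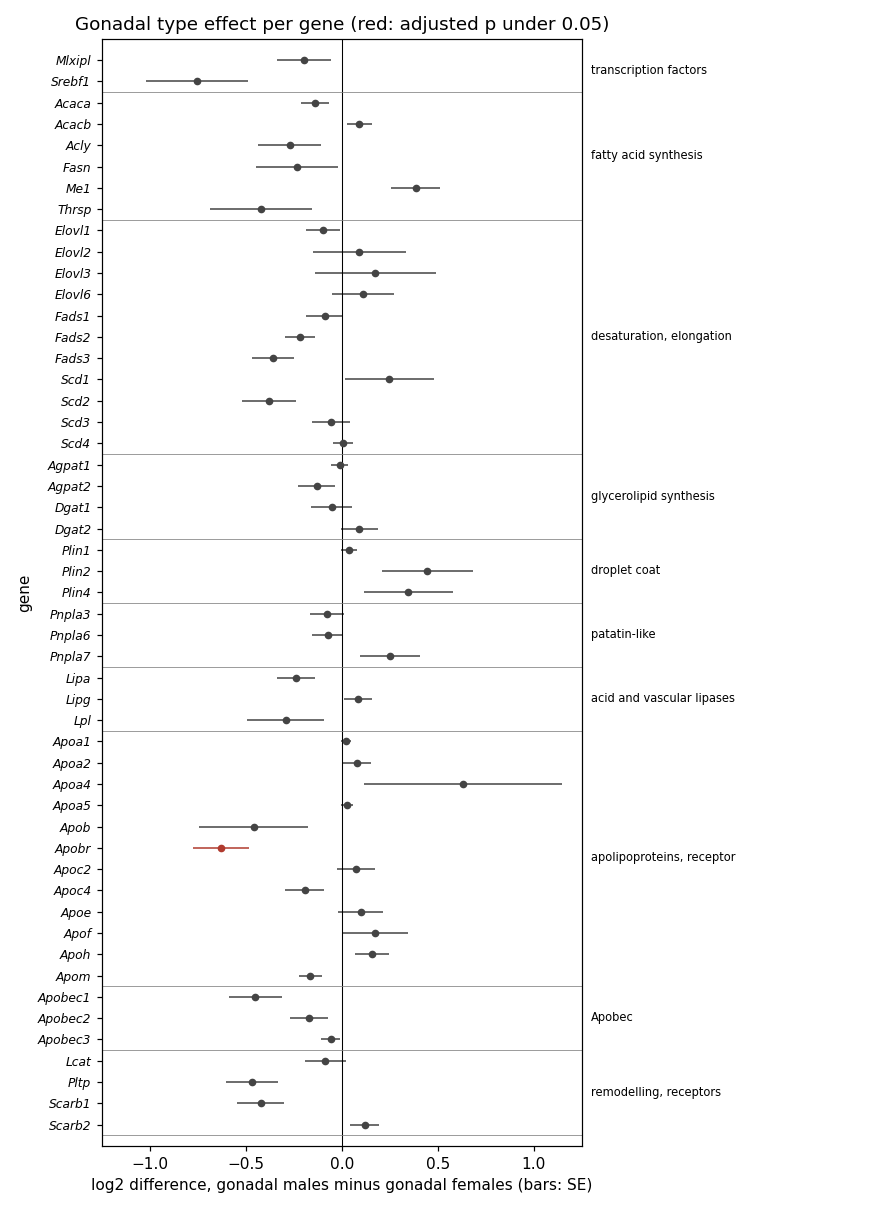
Difference in log2 ratio between gonadal males and gonadal females (limma, 10 livers against 10) for each of the 51 lipid genes by role; bars are standard errors, and values left of 0 are lower in gonadal males. Apobr, in red, is the gene past an adjusted p of 0.05, at -0.63; Srebf1 lies further left at -0.76 with a longer bar.

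Apobr encodes a receptor for triglyceride-rich lipoproteins, described in human monocytes and macrophages. Its log2 ratios were -0.41, -0.50, -0.28, -0.49 and -0.26 in XX Sry livers and -0.47, -0.47, -0.37, -0.46 and 0.13 in XY-Sry livers. In XX livers they were 0.16, 0.67, 0.33, 0.01 and 0.11, and in XY- livers 1.30, -0.06, 0.24, -0.09 and 0.03. Of the 10 gonadal males, 9 lay below every gonadal female; the exception was XY-Sry 14, at 0.13. The means were -0.36 ± 0.19 in gonadal males and 0.27 ± 0.43 in gonadal females (SD, n = 10 each), a difference of -0.63 ± 0.15 (SE, limma adjusted p = 0.0231). The difference was -0.64 ± 0.21 between XX Sry and XX livers and -0.61 ± 0.21 between XY-Sry and XY- livers (adjusted p = 0.184 and 0.330, limma). Leaving out 1 animal at a time kept Apobr past the threshold in 19 of 20 fits; without XY-Sry 19 its adjusted p was 0.0513. Without the 4 arrays of wide spread the difference was -0.47.

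Markers of other cell types moved with gonadal type in the same livers. The 14 Kupffer cell and macrophage markers were all measured. Of these, 13 had lower means in gonadal males and 6 were called lower (Csf1r, Clec4f, Cd5l, C1qa, C1qb and C1qc). The median difference of the 14 markers was -0.738. Their mean log2 ratio per liver ran from -0.847 to 0.394 in gonadal males and from -0.295 to 1.49 in gonadal females. The highest of the gonadal males was XY-Sry 14, and the highest of the gonadal females was XY- 12. These livers were also highest for Apobr in each gonadal type. The mean of the 4 measured hepatocyte markers was highest in the same livers, at 0.173 and 0.410. XY- 12, an array of wide spread, was also the highest gonadal female for T and NK lymphocyte (0.854) and erythroid (0.537) markers. Among gonadal males, other livers were highest for those lists. Of 12 T and NK lymphocyte markers, 9 were measured, 7 had lower means in gonadal males and 6 were called lower. The mean of the 9 per liver ran from -0.465 to -0.202 in gonadal males and from 0.094 to 0.854 in gonadal females, without overlap. Of all features, 2.28% were called lower by gonadal type. No marker can be called absent, since the values are ratios. In whole liver, fewer cells of a type and less RNA per cell cannot be told apart, and the part of these cells in the Apobr difference was not tested. Of 5 measured erythroid markers, 4 had lower means in gonadal males and 1 (Hba-a1) was called lower, with a median difference of -0.404. Of 6 measured adipocyte markers 1 (Car3) was called lower (median -0.041), and 0 of 4 hepatocyte and 0 of 4 pancreatic markers were called (medians -0.095 and -0.065).

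**Figure D3:**
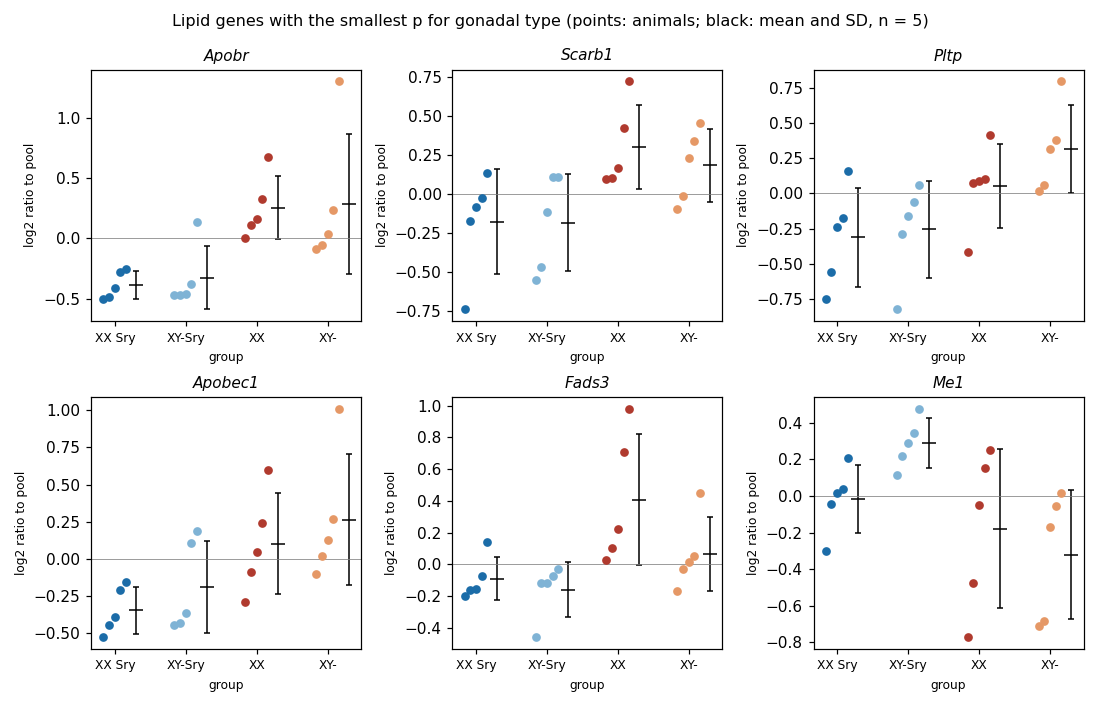
Log2 ratios of 6 lipid genes with the smallest p for gonadal type, with 5 livers a group as points and the mean and SD in black (XX Sry and XY-Sry are gonadal males, XX and XY- gonadal females). Apobr shows 1 gonadal male, at 0.13, among the gonadal females, and the points of the other 5 genes overlap between gonadal types.

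The transcription factors were examined next, since they stand above the synthesis genes. Srebf1 was -0.54, -1.06, -0.92, -0.02 and -0.38 in XX Sry livers and -0.38, 0.43, -0.33, -1.03 and -0.32 in XY-Sry livers. It was 0.53, 1.77, -0.49, -0.34 and 1.67 in XX livers and 0.10, -0.08, -0.14, 0.33 and -0.36 in XY- livers. Thus 9 of 10 gonadal males lay below the pool, and the highest values of all belonged to XX 6 and XX 2. The mean was -0.46 ± 0.46 in gonadal males and 0.30 ± 0.81 in gonadal females (SD, n = 10 each), and the difference of -0.76 ± 0.27 did not pass (SE, limma adjusted p = 0.126). It was -0.31 without the 4 arrays of wide spread. Mlxipl, a glucose-responsive factor that acts on many of the same genes, had a difference of -0.20 ± 0.14 (adjusted p = 0.527).

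None of the 6 genes of fatty acid synthesis passed, and 4 of them had lower means in gonadal males. Fasn, fatty acid synthase, had log2 ratios of -0.50, -0.28 and 0.44 in gonadal males (lowest, median, highest) and -0.63, -0.20 and 1.34 in gonadal females. Its difference was -0.24 ± 0.21 (SE, limma adjusted p = 0.650), and its 2 highest values belonged to XX 6 (1.34) and XX 2 (1.11). Acly, ATP citrate lyase, ran from -0.43 to 0.09 in gonadal males and from -0.34 to 1.10 in gonadal females. The 3 livers above all others were XX 6 (1.10), XX 2 (0.86) and XY- 3 (0.55). The same 3 livers were highest for Thrsp, at 2.20, 1.03 and 0.45, with all others at or below 0.15. The differences of -0.27 for Acly and -0.42 for Thrsp did not pass, and without the 4 arrays of wide spread they were 0.04 and 0.00, against 0.15 for Fasn.

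Acaca, the carboxylase that commits carbon to fatty acids, differed by -0.14 ± 0.07 (adjusted p = 0.323), and its 3 probes gave -0.07, -0.21 and -0.15. Acacb, the isoform tied to control of fatty acid oxidation, differed by 0.09 ± 0.07. Me1, the cytosolic malic enzyme, ran the other way. It was 0.04, 0.21, 0.02, -0.04 and -0.30 in XX Sry livers and 0.48, 0.34, 0.29, 0.11 and 0.22 in XY-Sry livers. In XX livers it was 0.25, -0.77, -0.05, 0.15 and -0.48, and in XY- livers -0.17, -0.71, 0.02, -0.68 and -0.06. All 5 XY-Sry livers lay above all 5 XY- livers, whereas XX Sry and XX livers overlapped; 0.619% of all features were higher without overlap between XY-Sry and XY-. The difference by gonadal type was 0.39 ± 0.13 (SE, limma adjusted p = 0.0997), and 0.20 without the 4 arrays of wide spread. Between XY-Sry and XY- livers it was 0.61 ± 0.18 (limma adjusted p = 0.263). The interaction, -0.45 ± 0.25, did not pass. The lowest XY- value, -0.71, was that of the library labelled XY- 30, which had no Y-linked signal. Without that library the interaction was -0.35 ± 0.25.

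**Figure D4:**
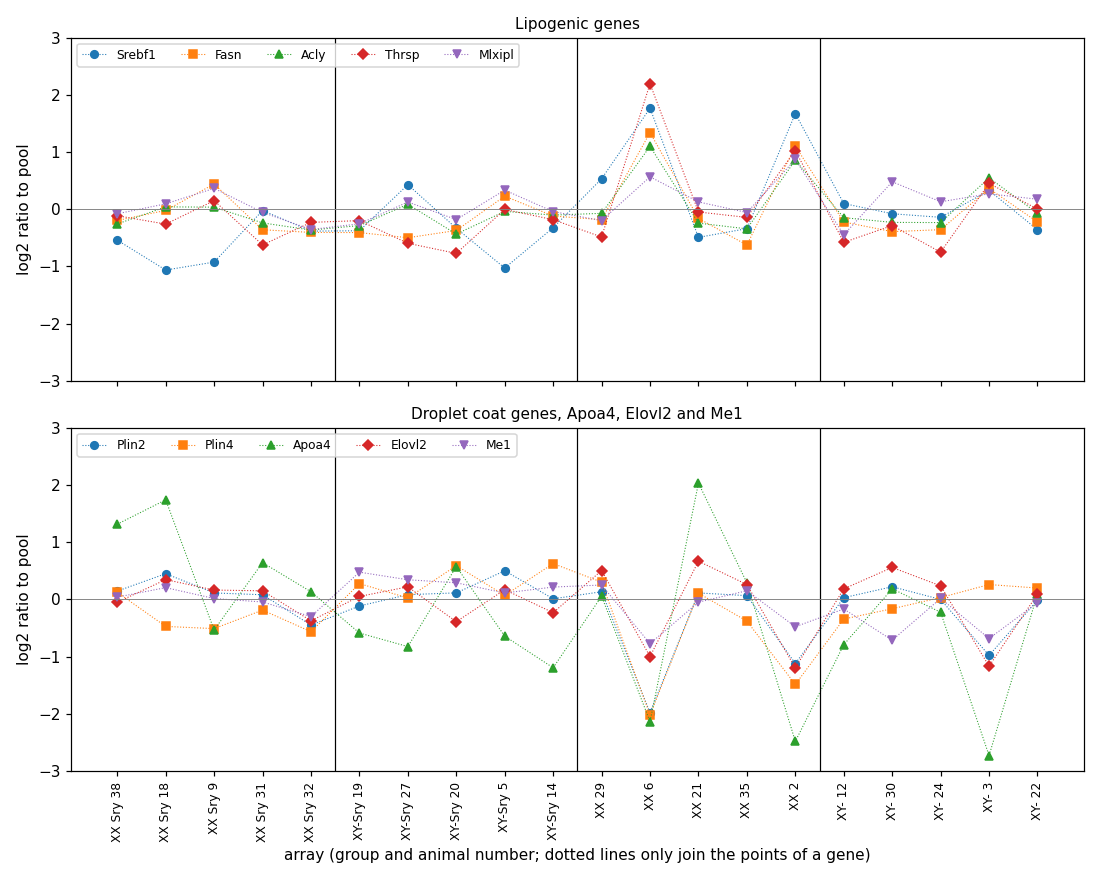
Log2 ratios of 10 lipid genes in each liver, by group (vertical lines); dotted lines only join points of a gene. In XX 6 and XX 2 the lipogenic genes of the upper panel lie above the pool, from 0.57 to 2.20, while the genes of the lower panel lie below it, from -2.48 to -0.48; XY- 3 shows the same signs except for Plin4, at 0.26.

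The desaturases and elongases numbered 11, and none passed. Fads3, a member of the fatty acid desaturase family, had log2 ratios of -0.46, -0.12 and 0.14 in gonadal males (lowest, median, highest) and -0.17, 0.08 and 0.98 in gonadal females. Its difference was -0.36 ± 0.11 (SE, limma adjusted p = 0.0773), and -0.15 without the 4 arrays of wide spread. Its neighbour on chromosome 19, Fads2, which starts polyunsaturated fatty acid synthesis, differed by -0.22 ± 0.08 (adjusted p = 0.135), with all 10 gonadal males below the median of the gonadal females. Fads1, next in the row, differed by -0.09 ± 0.10.

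The 4 Scd genes, desaturases that make monounsaturated fatty acids, also lie side by side on chromosome 19 and did not move together. Scd2 differed by -0.38 ± 0.14 (SE, limma adjusted p = 0.148), Scd1 by 0.25 ± 0.23, Scd3 by -0.06 ± 0.10 and Scd4 by 0.01 ± 0.05. Scd1, the main form in liver, was 0.92, 0.67, 0.71, -1.45 and 0.04 in XY-Sry livers, so that this group alone held its 3 highest values and its lowest. Elovl3 was 2.42 in XY-Sry 5, the liver with the lowest Scd1, and lay between -0.94 and 0.44 in the other 19 livers. Elovl6, which lengthens palmitate, differed by 0.11 ± 0.16. Elovl2, an elongase of polyunsaturated chains, was -1.0 in XX 6, -1.20 in XX 2 and -1.17 in XY- 3, and lay between -0.39 and 0.67 in the others. Its difference by gonadal type was 0.09 ± 0.24, and Elovl1 differed by -0.10 ± 0.09.

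Of the enzymes that build triglyceride and phosphatidate, none of 4 passed. The largest difference was -0.13 ± 0.10, for Agpat2, and Agpat1, Dgat1 and Dgat2 differed by -0.01 ± 0.04, -0.05 ± 0.11 and 0.09 ± 0.10. Among the perilipins, Plin2, the main droplet coat protein of hepatocytes, had log2 ratios of -0.45, 0.10 and 0.50 in gonadal males (lowest, median, highest) and -1.98, 0.01 and 0.22 in gonadal females. The medians were close, and the low values belonged to XX 6 (-1.98), XX 2 (-1.12) and XY- 3 (-0.98). The difference of 0.45 ± 0.24 did not pass (SE, limma adjusted p = 0.345) and was 0.01 without the 4 arrays of wide spread. Plin4 was -2.02 in XX 6 and -1.49 in XX 2, against 0.26 in XY- 3, and its difference by gonadal type was 0.35 ± 0.23. Plin1, the coat protein of adipocyte droplets, differed by 0.04 ± 0.04.

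None of the 6 lipases passed. Lipa, the lysosomal acid lipase, had the smallest p among them, with a difference of -0.24 ± 0.10 (SE, limma adjusted p = 0.204), and 9 of 10 gonadal males lay below the median of the gonadal females. Lpl, lipoprotein lipase, differed by -0.29 ± 0.20; it ran from -0.60 to 0.38 in gonadal males and from -0.95 to 1.36 in gonadal females, with XY- 3 lowest and XX 6 highest. Lipg, endothelial lipase, differed by 0.08 ± 0.07. Of the patatin-like enzymes, Pnpla3, tied to liver fat in humans, differed by -0.08 ± 0.09, the lysophospholipase Pnpla6 by -0.07 ± 0.08 and Pnpla7, of the same kind, by 0.25 ± 0.16.

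Of the 11 apolipoproteins, none passed. Apom, the HDL protein that carries sphingosine phosphate, had the smallest p of them, with a difference of -0.17 ± 0.06 (SE, limma adjusted p = 0.144). Its values ran from -0.26 to 0.01 in gonadal males and from -0.21 to 0.37 in gonadal females, and all 10 gonadal males lay below the median of the gonadal females; without the 4 arrays of wide spread the difference was -0.09. Apob was lower on average in gonadal males, by -0.46 ± 0.28 (adjusted p = 0.448), but its highest value, 2.21, was that of XY- 12 alone. Without the 4 arrays of wide spread the difference was -0.08.

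Apoa4 had the largest difference of the 51 genes on the side of gonadal males, at 0.63 ± 0.51 (SE, limma adjusted p = 0.598). It ran from -1.20 to 1.74 in gonadal males, with a median of -0.20, and from -2.73 to 2.03 in gonadal females, with a median of -0.08. The 3 livers below -2 were XX 6 (-2.14), XX 2 (-2.48) and XY- 3 (-2.73), and the difference turned to -0.34 once the 4 arrays of wide spread were left out. Its neighbours on chromosome 9, Apoa1 and Apoa5, differed by 0.02 ± 0.03 and 0.03 ± 0.03. In the cluster on chromosome 7, Apoc2, the activator of lipoprotein lipase, differed by 0.07 ± 0.10, Apoc4 by -0.19 ± 0.10 and Apoe, the ligand for remnant uptake, by 0.10 ± 0.12. Apoe lay between -0.17 and 0.11 in 19 livers and at -1.20 in XY- 3. Apoh was also lowest there, at -0.94, with a difference of 0.16 ± 0.09. Apoa2, the second protein of HDL, and Apof, which inhibits lipid transfer in humans, differed by 0.08 ± 0.07 and 0.17 ± 0.17.

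The genes of HDL remodelling and the editing enzyme held the differences nearest to the threshold after Apobr. Scarb1, the HDL receptor, had log2 ratios of -0.74, -0.10 and 0.14 in gonadal males (lowest, median, highest) and -0.09, 0.20 and 0.72 in gonadal females. All 10 gonadal males lay below the median of the gonadal females, and the difference was -0.42 ± 0.12 (SE, limma adjusted p = 0.0592). Pltp, the phospholipid transfer protein, ran from -0.82 to 0.16 in gonadal males and from -0.41 to 0.80 in gonadal females. It differed by -0.47 ± 0.14 (adjusted p = 0.0644), with 9 of 10 gonadal males below the median of the gonadal females. Both differences were as large without the 4 arrays of wide spread, at -0.52 for Scarb1 and -0.51 for Pltp. Lcat, which esterifies HDL cholesterol, differed by -0.09 ± 0.11, and Scarb2 by 0.12 ± 0.08.

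Apobec1, which edits Apob mRNA to the short form of the protein, had log2 ratios from -0.53 to 0.19 in gonadal males and from -0.29 to 1.01 in gonadal females. Its difference was -0.45 ± 0.14 (SE, limma adjusted p = 0.0752), and -0.26 without the 4 arrays of wide spread. Its highest gonadal male was XY-Sry 14 (0.19) and its highest gonadal female XY- 12 (1.01). These livers were also highest for the macrophage and the hepatocyte markers. The part of those cells was not tested. Apobec2, known from muscle, and Apobec3, a restriction factor of retroviruses, differed by -0.17 ± 0.10 and -0.06 ± 0.05.

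Leaving out the 4 arrays of wide spread changed many of these differences by gonadal type. Without them 17 of the 51 changed sign, among them those of Fasn, Acly, Thrsp, Plin4 and Apoa4, and the median size fell to 0.082, against 0.165 with all 20 arrays. Apobr stayed past the threshold without them, and it was the one lipid gene past it (1.96%, against 3.84% of all features). The gonadal females left in this fit were XX 29, XX 21, XX 35, XY- 30, XY- 24 and XY- 22. Without these 4 and the library labelled XY- 30, Apobr, Fads2 and Scarb1 were past it (-0.51, -0.30 and -0.60). They are 5.88% of the lipid genes, against 3.35% of all features. In that fit the gonadal females were only XX 29, XX 21, XX 35, XY- 24 and XY- 22.

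Other genes of the same pathways were looked up in 6 lists. Of 10 measured genes for lipogenic supply and NADPH, 1 was called by gonadal type: Acss2, which makes acetyl-CoA from acetate, was lower in gonadal males (-0.55 ± 0.12 SE, limma adjusted p = 0.0129). Of 9 measured genes for other steps of triglyceride synthesis and storage, Lpin1, the phosphatidate phosphatase that also acts as a coregulator of fasting genes, was 3.18-fold higher (1.67 ± 0.22, adjusted p = 4.96e-04), and Gpat2, an acyltransferase, was lower (-0.25 ± 0.04, adjusted p = 0.00246). Of 13 measured genes for lipoprotein assembly, uptake and cholesterol export, Mttp, which loads lipid onto Apob, was higher (0.47 ± 0.10, adjusted p = 0.0102) and Abcg1, a cholesterol exporter abundant in macrophages, was lower (-0.59 ± 0.14, adjusted p = 0.0285). None was called among 12 genes of SREBP processing and sterol sensing, 10 of acyl-CoA synthesis and uptake and 9 lipase cofactors and other lipases. Their unadjusted p was under 0.05 for 2, 1 and 3 genes by limma, against 17.8% of all features. After adjustment 3.74% of all features were called by gonadal type. The medians of the 6 lists lay between -0.070 and 0.009.

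The second comparison asked which genes depend on the sex chromosomes, over both gonadal types. No lipid gene passed, against 0.0277% of all features. None of the 51 lies on the X or Y chromosome. At an unadjusted p under 0.05 there were 2 lipid genes (3.92%), Plin4 and Lcat, both lower in XX livers, against 5.08% of all features (2.65% lower). The median difference, XX minus XY, was -0.009 for the lipid genes and -0.009 for all features.

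Plin4 had log2 ratios of -2.02, -0.43 and 0.30 in XX livers (lowest, median, highest) and -0.34, 0.13 and 0.63 in XY livers. Of the 10 XX livers, 9 lay below the median of the XY livers, and 6 below all of them. Its difference was -0.67 ± 0.23 (SE, limma adjusted p = 0.912), and -0.33 without the 4 arrays of wide spread, since its 2 lowest values were those of XX 6 and XX 2. Lcat ran from -0.73 to 0.30 in XX livers and from -0.17 to 0.57 in XY livers, and differed by -0.24 ± 0.11 (adjusted p = 0.912). Apob and Elovl3 had the next lowest differences, at -0.31 ± 0.28 and -0.28 ± 0.32. Without the 4 arrays of wide spread that of Elovl3 was -0.08 and that of Apob turned to 0.11; without XY- 12 alone that of Apob was -0.06. The largest differences in the other direction were those of Apoa4 (0.72 ± 0.51), Thrsp (0.44 ± 0.26) and Fasn (0.29 ± 0.21), none of which passed. Without the 4 arrays of wide spread these 3 were 0.98, 0.13 and 0.06. The 3 Acaca probes disagreed in sign, at 0.05, 0.05 and -0.22. The library labelled XY- 30, which lacked Y-linked signal, did not change this: without it no lipid gene passed, and Plin4 differed by -0.69. None of the 6 pathway lists held a called gene.

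The third comparison asked whether the difference by gonadal type itself differed between XX and XY livers. It passed for 0 of the 51 lipid genes, against 0% of all features, and at an unadjusted p under 0.05 by limma there were 0 lipid genes and 2.60% of all features. The largest in size were those of Apoa4, at 0.95 ± 1.03 (SE), and Srebf1, at -0.92 ± 0.53, followed by Elovl3 (-0.72 ± 0.63) and Thrsp (-0.61 ± 0.53). The mean of Srebf1 was -0.59 ± 0.42 in XX Sry livers and 0.63 ± 1.07 in XX livers, and -0.33 ± 0.52 in XY-Sry livers and -0.03 ± 0.26 in XY- livers (SD, n = 5 each). Pnpla7 and Plin2 had interactions of 0.37 ± 0.31 and 0.36 ± 0.47. Once the 4 arrays of wide spread were left out, the interaction was 0.42 for Apoa4, -0.35 for Srebf1, -1.12 for Elovl3, 0.02 for Thrsp, 0.19 for Pnpla7 and -0.09 for Plin2. In that fit 4 lipid genes (Lipg, Me1, Apob and Plin4) were at an unadjusted p under 0.05 by limma, against 7.70% of all features, and none passed after adjustment.

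Within XX livers, XX Sry minus XX, no lipid gene passed, against 0.665% of all features. At an unadjusted p under 0.05 there were 9 (17.6%), 1 higher and 8 lower, against 12.1% of all features (5.54% higher and 6.59% lower). The higher one was Lipg, at 0.23 ± 0.10 (SE), and the lower ones were Srebf1, Fads3, Apobr, Scarb1, Apom, Scd2, Apobec1 and Apobec2. Srebf1 had the largest, at -1.22 ± 0.38 (SE, limma adjusted p = 0.165), and Apobr was the one gene whose XX Sry livers all lay below the XX livers; 2.83% of all features did so. Within XY livers, XY-Sry minus XY-, no lipid gene passed either, against 0.157% of all features, and 9 (17.6%) were at an unadjusted p under 0.05, 2 higher and 7 lower, against 9.26% (4.77% higher and 4.49% lower). The higher ones were Me1 and Apoh (0.29), and the lower ones were Apobr, Pltp (-0.57), Fads2, Lipa, Apobec1, Apoc4 (-0.33) and Scarb1. Between XX Sry and XY-Sry livers 0 passed and 0 were at an unadjusted p under 0.05, against 0.00462% and 2.08% of all features. Between XX and XY- livers 0 passed and 3 were at an unadjusted p under 0.05 (5.88%), against 0% and 6.09%. These were Apobec3 (-0.15 ± 0.07), Fads3 (0.34 ± 0.16) and Plin4 (-0.69 ± 0.33).

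The last question was whether the lipogenic genes followed Srebf1 from liver to liver. Over all 20 livers, Pearson's r with Srebf1 was 0.755 for Acly, 0.613 for Thrsp, 0.588 for Fasn, 0.530 for Pnpla3, -0.537 for Me1, 0.411 for Acaca, 0.158 for Scd1 and -0.123 for Elovl6. Of these 8 relations 5 passed after adjustment over the family (adjusted permutation p = 0.0114 for Acly, 0.0254 for Thrsp and Fasn, 0.0278 for Pnpla3 and Me1; raw p = 0.00143, 0.0094, 0.00954, 0.0174 and 0.0148, two-sided). By rank none passed: Spearman's rho was 0.377 for Acly, -0.069 for Thrsp, 0.045 for Fasn, -0.287 for Me1 and 0.514 for Pnpla3 (adjusted permutation p = 0.405, 0.852, 0.852, 0.436 and 0.176). The relations of Acly, Thrsp, Fasn and Me1 rested on XX 6 and XX 2, the livers farthest from the median of Srebf1: without them r was 0.203 for Acly, -0.328 for Thrsp, -0.346 for Fasn and -0.196 for Me1. That of Pnpla3 did not rest on them. Without them its r was 0.588 and its rho 0.579 (n = 18, raw permutation p = 0.0103), but the r no longer passed the adjustment over the 8 relations (adjusted permutation p = 0.0826), and 0 of 8 passed. Both are arrays of wide spread over all probes, and the part of that spread was not tested. The permutations took no account of the 4 groups, so differences between group means also enter these p-values.

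Within gonadal males, Fasn ran against Srebf1, with r = -0.800 (n = 10, adjusted permutation p = 0.0376), and it was the 1 relation of 8 that passed; by rank rho was -0.685 (adjusted permutation p = 0.192). Within gonadal females, Fasn ran with Srebf1, with r = 0.926, as did Acly (0.914) and Thrsp (0.801), and these 3 passed (n = 10, adjusted permutation p = 0.0104, 0.0104 and 0.033); by rank rho was 0.588, 0.770 and 0.358, and none passed (adjusted permutation p = 0.322, 0.101 and 0.490). Among the 8 gonadal females other than XX 6 and XX 2, r was 0.499 for Fasn, 0.572 for Acly and -0.075 for Thrsp, and none passed. Whether the relation differs between gonadal types was not tested.

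**Figure D5:**
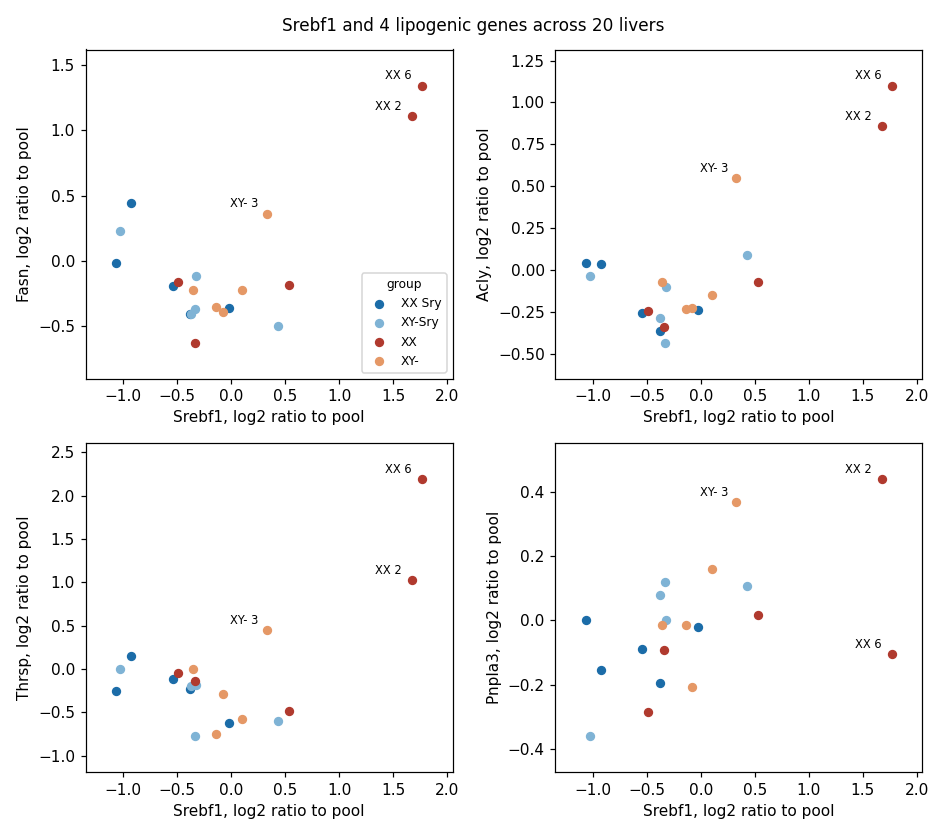
Log2 ratios of Fasn, Acly, Thrsp and Pnpla3 against Srebf1 in 20 livers, coloured by group, with XX 6, XX 2 and XY- 3 named. XX 6 and XX 2 lie apart at Srebf1 values of 1.77 and 1.67, and the other 18 livers show no common rise of Fasn or Thrsp with Srebf1 (r = -0.346 and -0.328 without these 2).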

How the data were processed

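Liver RNA of 20 mice was measured on 20 arrays, 1 per animal, grouped by the labels; animal numbers differed throughout, so nothing paired the groups. Per the labels, RNA was isolated on RNeasy columns with DNase and amplified with an automated aminoallyl MessageAmp II procedure. The labels describe the pool as liver of 17 mice, the design text as equal shares of every sample; it cancels in all comparisons. Scanner, background correction and dye normalization are not given in the sources used here. Signal over background was not analysed here. The number of arrays and their unequal spread limit the precision.

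The deposited values are log ratios for 23574 probes. Their base and direction are not stated and were read from the values: as log10 of liver over pool, Eif2s3y was 1.74 ± 0.33 times and Kdm5d 1.68 ± 0.49 times the pool (Y-linked genes, SD over 9 XY arrays), against 1.18 and 1.16 in base 2. The authors' log10 ratios were therefore converted to log2; another base would scale all differences alike and leave p-values as they are. Values end at a size of 2 (29 values) and 2 are missing.

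Of 13713 probes listed in the platform annotation, 12662 were named through an Entrez ID in RefSeq's mouse table (GRCm38.p6), 4 through an accession and 999 by the platform's symbol; 48 named several genes and 9861 more were not listed. The files name no genome build. Probes of a gene were averaged.

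limma 3.58.1 in R 4.3.3 fitted 4 group means with a shared spread. Its moderated tests were adjusted by Benjamini-Hochberg over 21643 features (threshold 0.05); errors of differences are standard errors. The code was tested on simulated data. Relations with Srebf1 used Pearson and Spearman permutation tests, which shuffled livers without regard to group.

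Genes and lists were chosen with earlier results of these data known. Named are lipid genes past the threshold in any contrast, the 3 with the largest difference each way per factorial contrast, the 2 with the smallest p per role and a set of core genes, 31 in all, and called genes of the pathway lists. The other 20 lipid genes, given so that every gene has a value, and the single livers pointed out were chosen after their values were seen. Alternatives were array weights, scalings, probe and feature sets, an additive model and leaving out animals.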

Additional observations from a re-analysis of the deposited data

Results flagged for a closer look

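Within the 4 groups, the highest and lowest of 5 livers were tested as single outliers (Dixon's criterion at 95%) for the 31 genes named by rule. In 14 of 124 tests (11.3%) 1 liver stood apart. The same criterion picked out 6.56% of the groups over all features, and chance gives about 1 in 20; the genes share the same 20 arrays and were named partly for their differences, so these shares are descriptions. The liver XY- 3, an array of wide overall spread, accounts for 5 of the 14, and for 8.96% of those over all features. In XY- livers, XY- 3 was at 0.55 for Acly (the other 4 between -0.23 and -0.07), at 0.36 for Fasn (others -0.39 to -0.22) and at 0.53 for Pnpla6 (others -0.13 to 0.05). The same liver was at -0.98 for Plin2 (others -0.01 to 0.22) and at -1.20 for Apoe (others -0.17 to 0.08). XY- 12, the other wide array of that group, was at 1.30 for Apobr (others -0.09 to 0.24) and at -0.05 for Elovl3 (others -0.46 to -0.36). In XX livers, XX 6 was at 1.36 for Lpl (others -0.21 to 0.22) and XX 21 at 0.86 for Apobec2 (others -0.04 to 0.13).

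Among gonadal males, XY-Sry 14 was at 0.13 for Apobr (the other 4 between -0.47 and -0.37) and at -0.62 for Pnpla7 (others 0.02 to 0.10). XY-Sry 5 was at -0.46 for Fads3 (others -0.12 to -0.03) and at -0.36 for Pnpla3 (others 0.00 to 0.12). XX Sry 18 was at 0.18 for Acaca (others -0.26 to -0.14).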

How the results depend on the processing

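The number of lipid genes called by gonadal type was 1 (Apobr) and moved with the setting. It was 0 to 3 when 1 animal was left out, against 3.74% of all features with all 20 arrays. Without XY-Sry 19 it was 0 (1.82% of all features). Without XX Sry 32 (with Pltp, 3.01%), XY-Sry 14 (with Scarb1, 3.72%) or XX 21 (with Fads3, 2.85%) it was 2. Without XX 6 (with Fads2 and Pltp, 4.01%) or XY- 30 (with Apom and Scarb1, 5.22%) it was 3. It was 3 with array weights (Apobr, Pltp and Scarb1; 7.76% of all features), 5 after quantile normalization (with Apobec1 and Fads3 besides; 5.42%), 4 with arrays scaled to one median absolute deviation (Apobec1, Apobr, Fads3 and Pltp; 5.51%), 2 in an additive model (Apobr and Scarb1; 4.14%) and 3 without the 4 wide arrays and XY- 30 (Apobr, Fads2 and Scarb1; 3.35%), a setting added after the data were seen. All lipid genes called under these settings were lower in gonadal males, and the causes were not tested. Among all called features, 493 of 809 were lower with all 20 arrays and 770 of 1174 after quantile normalization. With array weights 907 of 1679 were lower, and without the 4 wide arrays and XY- 30 514 of 725. The settings share animals and name the same genes again, so their calls are not independent. Over all features the count of 809 became 1679 with array weights, and 393 to 1129 when 1 animal was left out. The count of lipid genes stayed at 1 without the wide arrays alone (3.84% of all features) and after centring on the median (3.27%). The same held with single probes (3.39% of probes), with named genes only (4.57% of them), without features at the limit (3.74%) and with robust eBayes (3.57%). For XX Sry minus XX, 0 became 1 (Apobr) with array weights, after quantile normalization, with only the 2 groups fitted and without XY- 12 (range 0 to 1). In this contrast 0.665% of all 21643 features were called with all 20 arrays. When 1 animal was left out, 36 to 461 features were called. The shares of all features under the settings that called Apobr here are not given, so this gain cannot be set against them. In the other 5 contrasts 0 lipid genes were called in every setting run. The 5 relations with Srebf1 became 0 without XX 6 and XX 2 (for Pnpla3 r was then 0.588 and its adjusted permutation p 0.0826), 1 within gonadal males, 3 within gonadal females and 0 within gonadal females without XX 6 and XX 2, the last added after the data were seen. The differences by gonadal type of the genes named by rule were counted once per gene and setting. So counted, 19 moved past the threshold and 1 lost it (Apobr without XY-Sry 19). The 19 came from Pltp, Scarb1, Fads2, Fads3, Apom and Apobec1, all but Apom in more than 1 setting. Over the comparisons by gonadal type, by sex chromosomes and of their interaction, 2678 such differences kept their sign and their side of the threshold. A further 151 changed sign. None of the 151 had passed with all 20 arrays. No paired analysis was possible because the groups share no animal numbers.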
